A study of Rattus norvegicus with 6 samples.

Results

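DNA methylation was profiled in control newborn rat hearts by methylated DNA immunoprecipitation read on tiling arrays (MeDIP-chip). The 3 control hearts were chosen by their labels from the 6 samples of a series on maternal exposure to PM2.5, fine airborne particles; the exposed hearts enter no value here. The control hearts came from Sprague-Dawley (labelled SD) rats at day 1, and their tissue is labelled cardiac muscle. During pregnancy their dams were anaesthetised with ether and received 30 μL of saline dripped into the trachea through a catheter, so the controls carry the handling of the procedure. The labels call the hearts biological replicates, but do not say whether the pups came from separate litters or which sex they were. The extraction note speaks of fetal hearts while the age label gives day 1. Because the replicates may share a dam, the p-values below measure only the spread between these 3 hearts.

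DNA methylation in mammals is the addition of a methyl group to cytosine, mostly where a cytosine is followed by a guanine (a CpG). Promoters rich in CpGs are usually unmethylated, whereas most other CpGs of the genome carry the mark. An antibody to methylated cytosine pulls down methylated fragments, and the yield depends on how many methylated CpGs a fragment holds, so a CpG-poor stretch gives a low ratio even where its few CpGs are methylated. In the neonatal heart, methylation patterns are known to be remodelled as muscle cells mature after birth. A whole heart holds muscle, fibroblast, vascular and blood cells, and the values are averages over them.

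On each array, the immunoprecipitated DNA of a heart was labelled with Cy5 and the input DNA of the same heart with Cy3. The level of a probe is log2 of Cy5 over Cy3 minus the median of that array, so 0 is the middle of the array and not an absence of methylation. The design held 172669 probes of 45 to 60 nt, of which 164271 lay on the 20 autosomes, with coordinates on the rat build rn4. A probe was used where the input was well above background and no outlier mark was set on all 3 arrays, which held for 131658 probes. Neighbouring probes no more than 1000 bp apart made up 15455 regions, typically (median) of 10 probes over 1664 bp, and the 15354 regions with at least 2 used probes were tested. Input was well above background at 83.8%, 90.3% and 90.7% of the autosomal probes on controls 1, 2 and 3. The median input spot was 3.86 times its background on control 1, against 16.7 and 13.6 times on controls 2 and 3. Controls 2 and 3 shared 1 slide and scan and control 1 had its own, so a difference of control 1 from the other two cannot be told apart from a slide difference. Probes are given by position only, so neither the tissue label nor a gene could be checked against the ratios.

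The levels had a long tail of low values and a short reach upward. On controls 1, 2 and 3, 18.6%, 20.7% and 21.4% of the probes lay below -1, a Cy5 to Cy3 ratio under 1/2 of that at the array's middle, for a mean of 20.2% ± 1.46 (SD, n = 3). The share above 1 was 6.06%, 10.6% and 11.7%, for a mean of 9.43% ± 2.97 (SD, n = 3). The low tail was the larger on every array, and control 1 had the lower share at both ends. The lowest 1% of probes began at -3.86, -3.82 and -3.99, and the highest 1% at 1.43, 1.65 and 1.69. The standard deviation over probes was 1.09, 1.18 and 1.23, and that over region means was 0.575, 0.625 and 0.656.

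**Figure D1:**
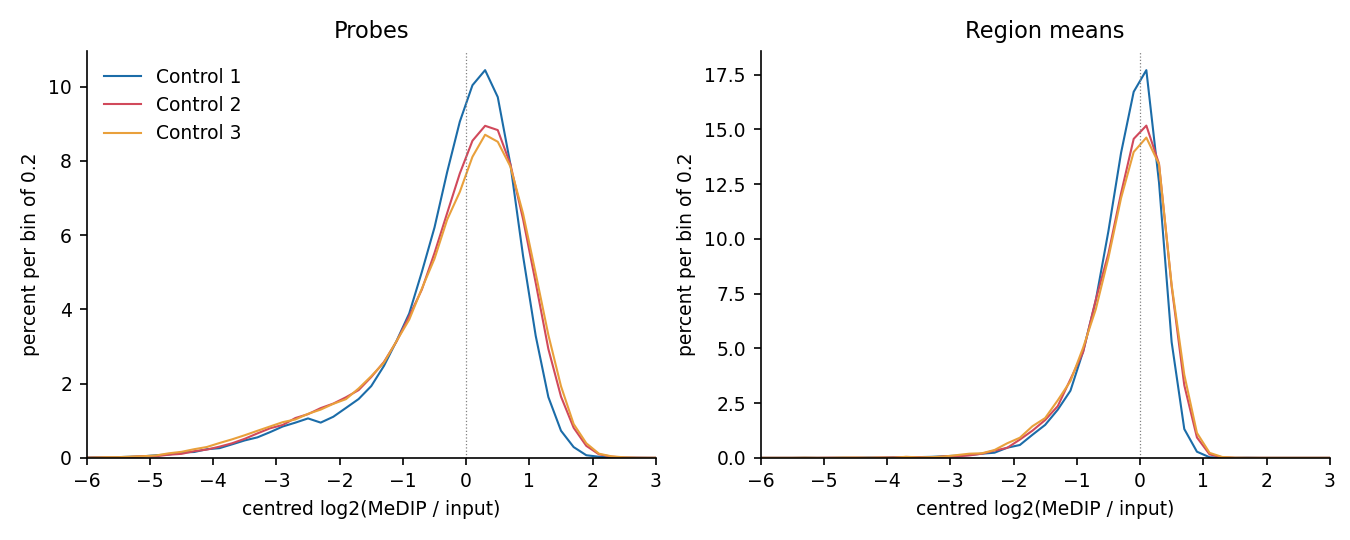
Distribution of centred log2 MeDIP over input ratios on the 3 control arrays, for probes (left) and region means (right), as the percent of values (y axis) in bins of 0.2 (x axis). All 3 curves lean to the left, with 18.6% to 21.4% of probes below -1, and control 1 is the narrowest, with a standard deviation of 1.09 over probes.

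Where Cy5 is not above background, a low ratio is only an upper bound, since the captured DNA was not measured. Cy5 was well above background on all 3 arrays at 83.6% of the used probes and on none at 10.0%. The probes without measured Cy5 lay at the low end. In the lowest decile of probes by mean level, 69.7% had no array with Cy5 above background, and in the upper 4 deciles no probe did.

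Level fell steadily with the length of the probe. Array designs commonly lengthen probes where the sequence is AT-rich to even out melting; the probe sequences were not analysed here. The 72911 probes of 45 nt averaged 0.16, 0.28 and 0.29 on controls 1, 2 and 3, and the 9157 probes of 60 nt averaged -1.66, -1.75 and -1.87. The gap between the shortest and the longest probes was 2.00 ± 0.171 (SD, n = 3) and had one direction on every array, with an exact two-sided sign-flip permutation p = 0.25, the smallest that 3 arrays allow. Mean level fell at each added base from 45 to 60 nt on every array. Length accounted for 26.7% to 32.3% of the variance over probes. The share of probes with no measured Cy5 moved with it, from 0.795% at 45 nt to 54.4% at 60 nt. Among probes with both channels above background on all 3 arrays the gap was 0.588 ± 0.147 (SD, n = 3), in the same direction. It was 0.944 with normexp background correction, 0.965 with loess, 1.40 with no filter and 1.01 in the authors' deposited values, so its size depended on the treatment of dim spots and of signal. Levels are therefore also given with each probe length centred on its own median on each array, called length-centred below.

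**Figure D2:**
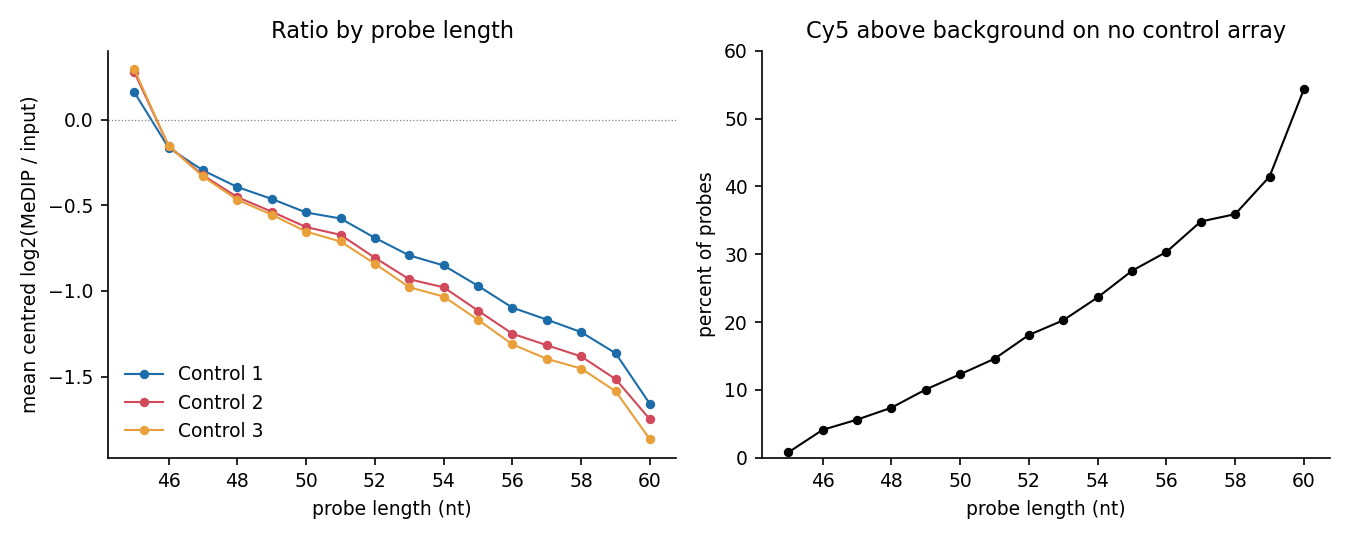
Mean centred log2 ratio of the probes of each length on each control array (left, log2 ratio against nt), and the percent of probes of each length with Cy5 above background on no control array (right). The mean runs from 0.24 at 45 nt to -1.76 at 60 nt while the unmeasured share runs from 0.795% to 54.4%.

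Regions standing apart from the middle of the array were far more often low than high. A region was called where its mean lay beyond 0.5 on the log2 scale (limma's treat test over 3 arrays, Benjamini-Hochberg adjusted p under 0.05 over 15354 regions). There were 341 higher regions (2.22%) and 3200 lower regions (20.8%), and 11813 were called neither way. The array's middle is that of probes, and the median region lay below it, at -0.134 ± 0.0152 (SD, n = 3). The cut at -0.5 was thus nearer to the median region than the cut at 0.5. Its share in the imbalance was not tested, and region medians in place of means gave fewer lower regions. The higher regions had a median level of 0.75 and reached 1.32, whereas the lower regions had a median of -1.03 and reached -5.16. The median higher region had used probes of 45.4 nt and the median lower region 51.3 nt. All used probes had measured Cy5 in 302 of the 341 higher regions but in only 106 of the 3200 lower ones. Among the 5056 tested regions with Cy5 measured at every used probe, a choice made after seeing the data, the same test gave 242 higher and 99 lower. That subset leaves out dim Cy5, and with it most low ratios, by construction, so it does not compare the ends of the range. Length-centred, 302 regions were higher and 1303 lower, and the authors' own log2 values gave 340 and 1384. The count of higher regions moved with the array set: it was 544 without control 1, 189 without control 2 and 198 without control 3, and 217 with the shared slide as a random block.

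Level differed by the number of probes in a region, with no single trend. The 4403 tested regions of 10 probes, the most common size, averaged -0.24, -0.21 and -0.23 on controls 1, 2 and 3. The 489 regions of 2 to 5 probes averaged -0.40, -0.38 and -0.38, and the 81 regions of over 100 probes averaged -0.49, -0.50 and -0.54. Both the smallest and the largest regions thus lay below those of 10 probes on every array, while regions of 11 probes, at -0.13, -0.09 and -0.09, lay above. Length-centred, the means were -0.224 for 2 to 5 probes, -0.0839 for 10 probes and -0.147 for over 100. Calls of lower made up 30.5%, 19.9% and 35.8% of these 3 classes, and calls of higher 8.38%, 2.00% and 0%. The smallest regions were thus called more often than those of 10 probes in both directions. The standard deviation over regions was 0.985, 0.577 and 0.392 in the same order.

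The 8 highest called regions with at least 5 used probes, all with measured Cy5, lay between 0.98 and 1.04. The first of them, chr1:203837344-203839056, measured 0.80, 1.12 and 1.18 on controls 1, 2 and 3 (mean 1.04 ± 0.205 SD, n = 3; limma treat adjusted p = 0.000154). The next, chr10:55133043-55134767, measured 0.86, 1.15 and 1.08. Both lay above 0.8 on all 3 arrays, with control 1 the lowest in each. Their used probes averaged 45.8 and 45.1 nt, and length-centred they lay at 0.88 and 0.73. The other 6 were chr5:73450795-73452435, chr19:58647044-58648630, chr3:52894674-52895508, chr6:91336421-91337941, chr15:40703479-40705129 and chr17:15471476-15473220. The chromosome 15 one was at 0.92, 0.96 and 1.11, but at 0.50 without control 1 (limma treat adjusted p = 1), a setting in which more probes qualify. The chromosome 5, chromosome 6 and chromosome 17 ones missed the threshold length-centred, at 0.68, 0.66 and 0.65 (limma treat adjusted p = 0.0694, 0.0643 and 0.0638).

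The 8 lowest regions under the same conditions lay between -3.22 and -1.13. The lowest, chr15:5178793-5180348, measured -2.87, -3.08 and -3.71 (mean -3.22 ± 0.433 SD, n = 3; limma treat adjusted p = 8.94e-08). Its probes averaged 47.2 nt, and length-centred it stayed at -3.23. It was also the most variable region of its kind over the 3 arrays, with every value far below the array's middle. The next, chr18:16237958-16239285, measured -2.09, -2.23 and -2.00, and chr4:179723651-179725117 measured -1.54, -1.89 and -2.00. These low levels came with measured Cy5, so they are values and not bounds. The other 5 were chr15:5672589-5674071, chr12:16639387-16641025, chr1:190399251-190401001, chr2:60391708-60393340 and chr17:9419146-9420660. The last of these, at -1.13, was at -0.52 length-centred and then not called (limma treat adjusted p = 1).

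Some of the lowest levels lay side by side, though most did not. With a rule chosen after seeing the data, a block was a row of at least 3 neighbouring tested regions that all lay under -1.5 on all 3 arrays, with gaps of at most 500 kb. There were 23 such blocks, and they held 97 of the 471 regions at that level. At the high end, 481 regions lay above 0.5 on all 3 arrays, and 0 blocks of 3 or more formed among them. The longest block, chr15:4856408-6289973, held 12 regions over 1433566 bp, with 78 used probes. It averaged -3.52, -3.56 and -3.93 on controls 1, 2 and 3, and its regions ran from -5.16 to -1.61. The next tested regions on either side stood at -0.47 and -0.08. The right one starts at 6934836, more than 500 kb past the block's end. The rule would thus end the block there at any level, and its right edge is not resolved.

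In the chromosome 15 block, both channels differed from the rest of the array. The mean input signal was 6.44 times that of the median region, and in single regions 3.39 to 9.89 times. The Cy5 signal was 0.554 times that of the median region. Its probes averaged 50.5 nt, and length-centred the block stayed at -3.24. Cy5 was above background on no array at 10.3% of its probes. The part of the raised input in the low ratio was not tested.

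**Figure D3:**
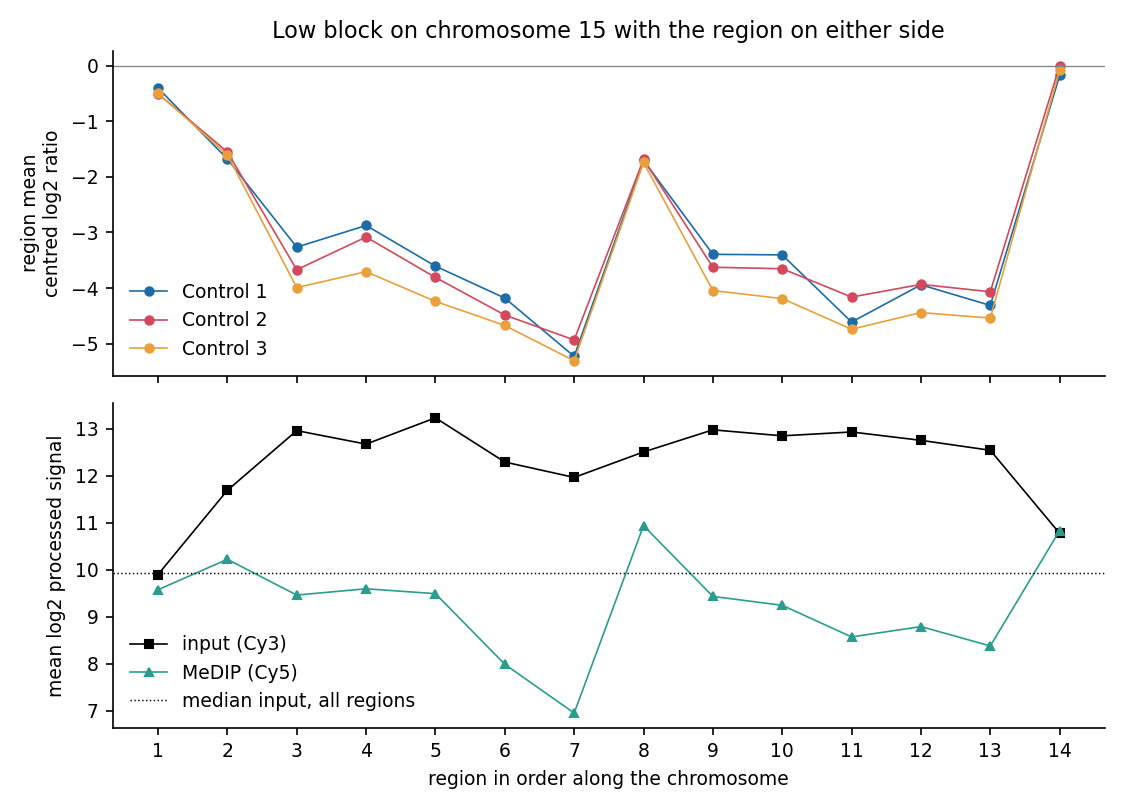
The 12 regions of the low block on chromosome 15 with 1 region on either side, in order along the chromosome: region mean ratio on each control array (top, log2) and mean log2 processed signal of input and MeDIP DNA over the arrays (bottom; the dotted line is the median input over all tested regions). Ratios drop to between -5.16 and -1.61 inside the block, where input stands 3.39 to 9.89 times above the median region.

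The other long blocks had another make-up. The block chr20:196913-336910 held 8 regions at -2.60, -2.24 and -2.30. The block chr1:266512-1287460 held 6 regions at -3.34, -3.18 and -3.31. In these blocks 46% and 43.6% of the probes had no measured Cy5, and the probes averaged 54.0 and 56.7 nt. Length-centred they stood at -1.42 and -1.99. The block chr5:78091824-78685980, also with 6 regions, had 23.5% of such probes and stood at -2.31, -2.38 and -2.48, or -1.93 length-centred. The block chr7:6049467-6594374, of 6 regions too, stood at -2.32, -1.91 and -2.37, or -1.10 length-centred, and 50% of its probes had no measured Cy5. These 4 blocks thus stayed below the array's middle with length removed, though with a smaller share of measured probes than the block on chromosome 15.

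In windows of 5 Mb with at least 10 tested regions, 424 in all, mean levels ran from -2.73 to 0.15 with a median of -0.20. The lowest window was chromosome 15 from 5 Mb, where 10 of the 14 tested regions belonged to the long block, and length-centred it stood at -2.41. The first 5 Mb of chromosome 1 and of chromosome 9 came next, at -1.29 and -1.10, and at -0.88 and -0.60 length-centred. The 155 regions of chromosome 3 from 70 Mb averaged -0.97, -1.05 and -1.11, and the 106 regions of chromosome 8 from 40 Mb averaged -0.94, -1.01 and -1.06. These large windows were low on all 3 arrays but had long probes, at 53.7 and 53.2 nt, and length-centred they stood at -0.17 and -0.20.

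Whole chromosomes differed by small amounts that repeated closely over the arrays. The mean over a chromosome's regions was set against the mean over all other autosomal regions on each array. Of 20 autosomes, 10 (50%) lay higher and 9 (45%) lower (limma, Benjamini-Hochberg adjusted p under 0.05 over 20), and chromosome 18 was called neither way (limma adjusted p = 0.233). Chromosome 19 was highest, at 0.21, 0.24 and 0.26 above the others on controls 1, 2 and 3 (mean 0.24 ± 0.0259 SD, n = 3; limma adjusted p = 2.85e-29). Chromosomes 12 and 16 followed, at 0.17 and 0.14. Chromosomes 15, 3 and 4 were lowest, at -0.109, -0.106 and -0.0912. These differences were small beside the spread of regions within a chromosome, whose standard deviation was 0.456 to 0.791. The limma test over 20 chromosomes measures only how well 3 arrays repeat a mean, and it was 15 chromosomes that passed with the slide as a random block.

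Much of the order of the chromosomes went with probe length. Over the 20 chromosomes, mean level and mean probe length had Pearson r = -0.925 and Spearman rho = -0.896, given as a description, since both rest on 1 array design. Length-centred, 10 chromosomes were higher and 7 lower, and 7 of the 20 changed sign. Chromosome 19 remained the highest, at 0.0889 ± 0.00333 (SD, n = 3), and chromosomes 6 and 16 followed at 0.0574 and 0.0534. Chromosome 12 fell back to 0.0215, and chromosome 4 turned to 0.00444 and was not called (limma adjusted p = 0.152). Chromosome 15 remained the lowest, at -0.100 ± 0.00688 (SD, n = 3). Without the 12 regions of its long block the measured difference was -0.0232, against -0.109 with them. The median region of chromosome 15, with the block included, stood at -0.22, the lowest median of the 20 autosomes as measured.

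**Figure D4:**
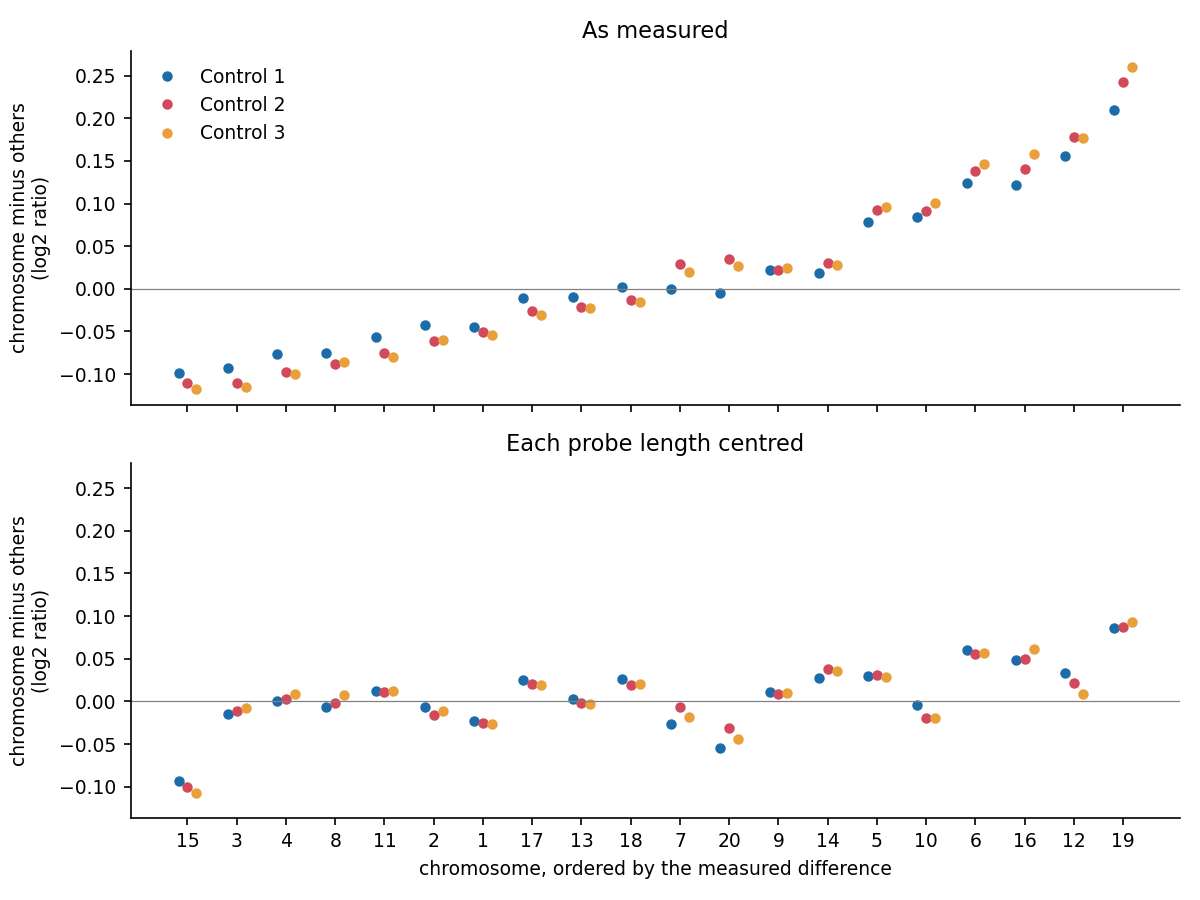
Mean ratio of each autosome's regions minus the mean of all other autosomal regions (log2, y axis) on each control array, as measured (top) and with each probe length centred (bottom), ordered by the measured difference. Chromosome 19 is at the top and chromosome 15 at the bottom in both panels, while the spread between them shrinks and 7 chromosomes change sign.

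The arrays repeated each other closely. Over probes, Pearson r was 0.947 for controls 1 and 2, 0.946 for controls 1 and 3, and 0.976 for controls 2 and 3, which shared a slide. Over regions it was 0.967, 0.967 and 0.986. Length-centred, Pearson r over probes was 0.927, 0.925 and 0.965 for the pairs in this order. The standard deviation of the difference between 2 arrays over regions was 0.163, 0.177 and 0.111 for the same pairs, against 0.575 to 0.656 for the levels themselves. Differences over 0.5 were found in 103, 143 and 30 of the 15354 regions. All 3 arrays agreed in sign at 85.2% of probes and 88.2% of regions. The pair on 1 slide was the closest by each of these pairwise measures. These are descriptions across features of the same 3 hearts.

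Low regions were shared between arrays more than high ones. Of the 1535 regions in the highest decile of one array, 74.9%, 74.5% and 84.4% were in the highest decile of the other for the 3 pairs in the same order, and for the lowest decile the shares were 86.4%, 87.0% and 91.0%. Mean region levels reached down to -5.16 but up only to 1.32, so the lowest decile spans a wider range than the highest. What part this had in the sharing was not tested. Low probes nevertheless varied most in size. The median standard deviation over the 3 arrays was 0.285 in the lowest decile of probes by level, 0.158 in decile 6 and 0.204 in the highest. It also fell with signal, from 0.256 in the decile with the dimmest input to 0.135 in that with the brightest. Brighter probes were thus measured with less spread.

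In all 3 of the regions that varied most, among those with at least 5 used probes and measured Cy5 throughout, control 1 was nearest to 0. Besides the chromosome 15 region above, chr13:77676552-77678179 measured -0.39 on control 1 against -0.80 and -1.05 on controls 2 and 3. The region chr5:136309888-136311344 measured 0.39 against 0.87 and 0.97. In both, controls 2 and 3, on their shared slide, lay on the far side of control 1. Neither was called (limma treat adjusted p = 0.0735 and 0.0656), but without control 1 both passed, at -1.08 and 0.66 (limma treat adjusted p = 9.64e-07 and 0.0135). More probes qualify in that setting, so its means are not over the same probes. As the regions were picked for their spread and the arrays left share a slide, no conclusion is drawn from their passing.

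Most of the variation lay inside regions, not between them. Differences between regions made up 12.6%, 13.5% and 14.2% of the variance over probes on controls 1, 2 and 3, and 4.69% on average length-centred. Neighbouring probes, at a median of 162 bp between centres, had Pearson r = 0.280, 0.310 and 0.318 over 97664 pairs. The correlation fell to 0.186 on average for probes 2 apart, 0.110 for 3 apart and 0.0331 for 6 apart, at a median of 1071 bp. Length-centred it started lower, at 0.138 for neighbours, and was 0.0115 for 6 apart. Probes within a region may share base composition as well as DNA fragments, neither of which was measured, so these values are descriptions with no test.

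Sharp steps inside regions were common and repeated on the arrays. A step over 1 between neighbouring probes, in the same direction on all 3 arrays, was found in 28.4% of the pairs. Steps over 2 on all arrays numbered 8919 (9.13%) and fell in 5388 of 15185 regions (35.5%). The median difference in probe length was 7 nt across these large steps and 1 nt over all pairs. Of the large steps, 1189 (13.3%) joined probes of equal length, whereas 43.6% of all pairs had equal length. Large steps made up 2.79% of the pairs of equal length and 14.0% of the other pairs. Of the tested regions, 6883 (44.8%) held both a probe over 0.5 and a probe under -1 on all 3 arrays. A region mean could therefore average high and low probes, and how often this held for means near 0 was not counted.

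Rows of probes at one level were short, but so were most regions, with a median of 8 used probes per tested region. The longest row of neighbouring used probes over 0.5 on all arrays was 7 probes, for example chr6:42295437-42296496, at 0.98, 1.30 and 1.18. The longest row under -1 was 13 probes, found at 2 places on chromosome 1. The row chr1:116176101-116180443 stood at -2.54, -2.45 and -2.63, and chr1:116208630-116211039 at -2.53, -2.74 and -2.92. The longest low rows reached further than the longest high ones, and in both of these low rows 7 of 13 probes had no measured Cy5. Rows of at least 5 probes numbered 126 low and 103 high, but those of at least 3 numbered 1146 low and 1457 high. The 2 cut-offs differ, and 16.4% of used probes passed the low one and 19.5% the high one.

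The level inside a region was compared between 3 parts with equal numbers of probes (left, middle and right, any remainder going to the middle), in the 5361 regions with at least 9 used probes. The outer parts (left and right together) lay above the middle in 1706 regions (31.8%) and below it in 2399 (44.7%), and the right part lay above the left in 2230 (41.6%) and below it in 2033 (37.9%) (limma, Benjamini-Hochberg adjusted p under 0.05 for each contrast). Right means the higher coordinate, since no gene's strand is known. At least one contrast was called in 94.8% of the regions, and 281 regions had neither. An even measured ratio across a region was thus the exception at this precision. The test was against a difference of 0 between parts made of different probes. What the probes themselves add to such a difference was not tested. Probe length moved with both contrasts across regions (r = -0.582 and -0.675). Length-centred, 1774 and 2174 regions were called for outer against middle and 2024 and 1945 for right against left. The sign turned in 380 and 494 of the measured calls.

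Averaged over regions there was a weak common shape. The mean of outer minus middle parts was -0.0844, -0.0966 and -0.108 on controls 1, 2 and 3 (mean -0.0964 ± 0.0118 SD, n = 3; exact two-sided sign-flip permutation p = 0.25, the smallest possible). Length-centred it was -0.0460, -0.0461 and -0.0536, for a mean of -0.0486, and the authors' deposited values gave -0.0471 and normexp -0.0638. In the 12646 regions of 8 to 12 probes, cut into 10 equal steps of their width, the first and last steps averaged -0.34 and -0.31. Steps 3 and 8 averaged -0.11 each, and the centre steps -0.21. The ends were thus lowest, with a shallower dip at the centre. Length-centred, the ends stood at -0.17 each and the other steps between -0.08 and -0.04, so the dip at the ends remained.

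Single regions departed from that shape by far more. In chr5:154263503-154265242, the left, middle and right parts averaged 0.91, -1.75 and 0.46 over the arrays. Outer minus middle was 2.13, 2.48 and 2.68 on controls 1, 2 and 3 (mean 2.43 ± 0.279 SD, n = 3; limma adjusted p = 1.47e-07), and 1.87 length-centred. The 3 low probes in its middle stood at -1.59, -2.35 and -1.29, and each of the other 6 was above 0. Its trough thus lay between high shoulders. In chr1:206436985-206438618 and chr3:78367614-78369176 the same contrast was 2.01 and 1.88 on average. The opposite shape was strongest in chr6:106170754-106172364, where the middle part stood at 0.70, 1.00 and 1.00 and the left part at -1.04, -1.41 and -1.59. Its right part stood at 0.03, -0.04 and -0.14, also below the middle on every array, so both sides entered its contrast of -1.60, the left the more. In chr13:106989418-106991196 and chr1:245399035-245400817 the contrast was -1.55 and -1.45, and there the right part was the low side.

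One-sided regions changed level within a few probes. The clearest for probe length was chr18:58176502-58177851, where the outer parts had probes of equal mean length, 45.3 nt. Its left part stood at 0.78, 0.92 and 1.34 on controls 1, 2 and 3 and its right part at -1.18, -1.24 and -1.07. The 6 probes from the left lay between 0.55 and 1.26, and the last 3 stood at -0.68, -2.61 and -0.20. Right minus left was -2.18 ± 0.229 (SD, n = 3; limma adjusted p = 1.72e-06) and was also -2.18 length-centred. In chr5:148898741-148900344 and chr10:12043120-12044801 the fall was -2.51 and -2.22, and -1.69 and -1.99 length-centred. The rises of the same kind were 2.59 in chr9:5897816-5899483, 2.34 in chr11:29750578-29752263 and 2.27 in chr5:141257269-141258960. All 6 one-sided regions had one direction on all 3 arrays and kept it length-centred. All these regions were picked for the size of their contrast, so their sizes lie at the upper end by choice.

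**Figure D5:**
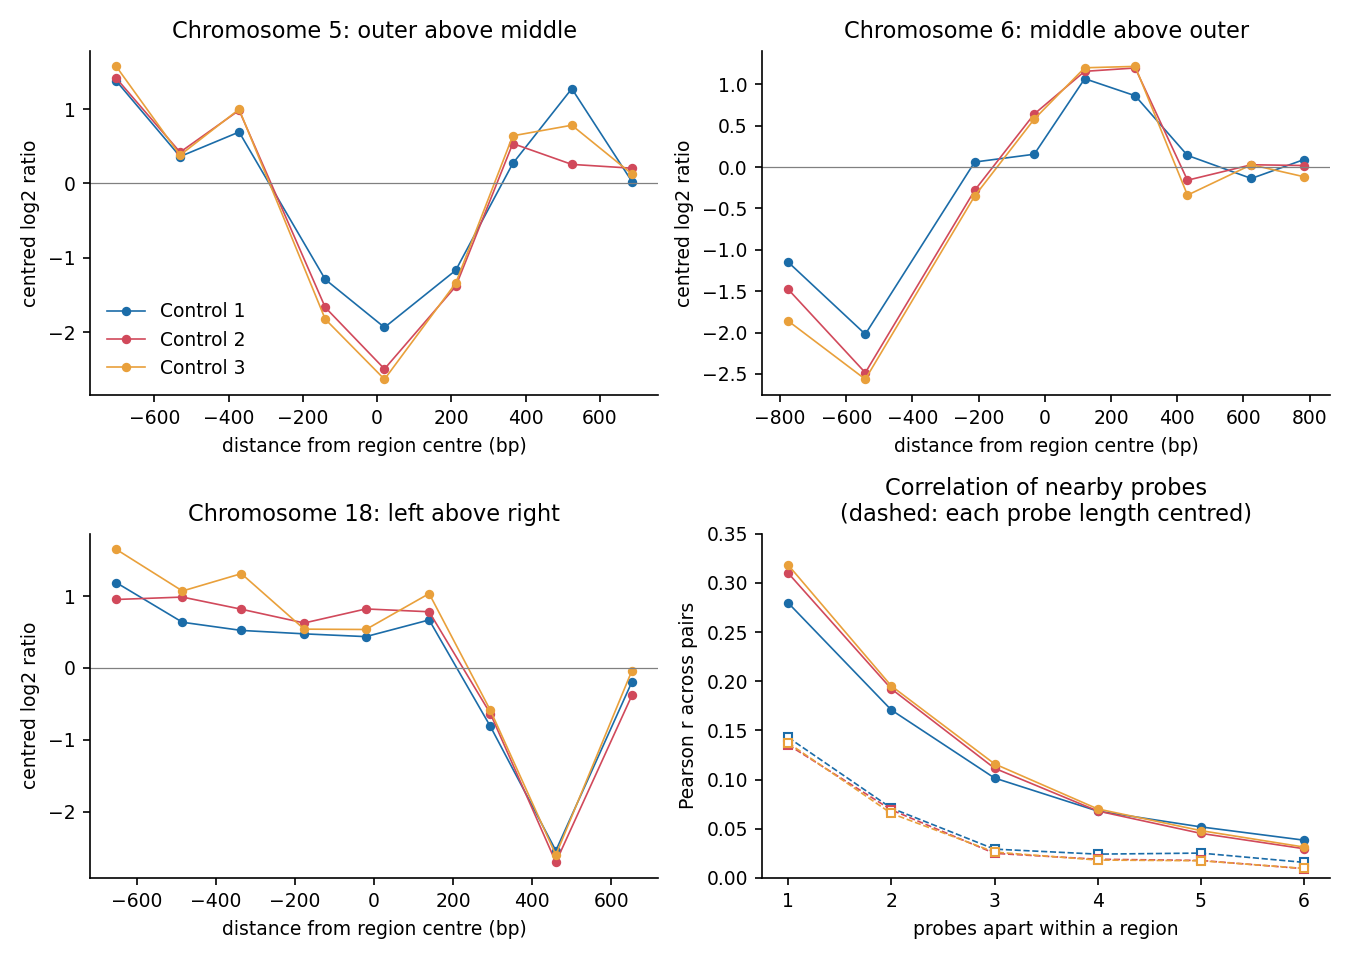
Centred log2 ratio of each used probe against its distance from the region's centre (bp) on the 3 control arrays, in a region with high outer parts (chromosome 5), one with a high middle part (chromosome 6) and one that falls from left to right (chromosome 18), and Pearson r between probes by the number of probes apart within a region (dashed lines are length-centred). The 3 arrays trace the same shape in each region, and the correlation falls from 0.280 to 0.318 for neighbours to under 0.04 for probes 6 apart.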

How the data were processed

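The authors deposited the intensity of every spot in each channel, read by Feature Extraction 11.0.1.1. Background subtraction, spatial detrending, a linear dye factor and surrogates for dim spots had been applied to these intensities, per the file headers, which also name the build rn4. A deposited table of log2 values served as an alternative; its scale, centring and smoothing are unknown, its direction follows Cy5 over Cy3, and its 3 columns of exposed hearts were not used.

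Ratios, regions and tests were computed with limma 3.58.1 under R 4.3.3, reading files through data.table version 1.17.8, and figures were drawn with matplotlib 3.10.9. Control spots, chromosome X and unplaced sequence were left out. Usable autosomal spots gave the median subtracted from each array. Regions were tested with an intercept fit and treat at 0.5, and chromosomes and parts of regions with eBayes, all at an adjusted p under 0.05. The tests treat the 3 arrays as independent, although 2 share a slide, whose correlation by moments was 0.576 over regions. The number of arrays limits the precision. The scripts were tested on simulated data.

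Regions named were the 8 highest and 8 lowest called, the 3 largest contrasts between parts in each direction and the 3 of largest standard deviation over arrays, among regions whose used probes all had unsaturated Cy5 well above background (at least 5 used probes for the first and last kinds). This condition keeps most of the lowest regions out. The block, row, window and chromosome 15 descriptions fall outside this rule and were chosen after values were seen. The members, lists and tests were chosen with earlier results of these data known. Alternatives included normexp background correction (offset 50), loess (span 0.3), quantile and scale normalisation, probe length, filters, region gaps (500 and 2000 bp), the slide as a block and each array left out. Centring on commonly usable probes, regions clear in Cy5, the named chromosomes and leaving out the chromosome 15 block were added after seeing the data.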

Additional observations from a re-analysis of the deposited data

How the results depend on the processing

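No paired analysis was possible because only the control group was analysed, so replicate numbers pair no samples. Summary values were compared with the main setting. A count was taken as kept within a fixed fold of the main count. Another value was kept when it moved by less than the SD over arrays. By this rule 131 comparisons were kept, 48 values moved, 11 counts rose and 24 fell. The 19 chromosomes called, against 16 with normexp and 13 with loess, thus passed as kept. Those not kept are given here, and the causes were not tested beyond what each setting removes. Normexp gave 73 higher and 1145 lower regions, 4.32% of probes above 1 and 11.4% below -1, standard deviations of 0.745 over probes and 0.389 over regions, a mean r between arrays of 0.927 and 12.3% of variance between regions, and these quantities keep this order for the other settings. Loess gave 108 and 1845 regions, 17.3% below -1, standard deviations of 0.982 and 0.501, a neighbour r of 0.271, an array r of 0.927 and 9.96%. Requiring both channels above background left fewer regions to test (15093, and 2948 for parts of regions) and gave 144 and 1411 regions, 5.70% and 13.2%, 0.819 and 0.448, 12 chromosomes, 865 and 1208 regions for outer against middle, 1136 and 1030 for right against left, a neighbour r of 0.226, an array r of 0.932 and 9.86%. No filter gave 11533 regions for the comparison of parts, with 3601 and 4765, and 4667 and 4383 called, a region standard deviation of 0.546, an array r of 0.937 and 11.8% of variance. The authors' deposited values gave 1384 lower regions, 2.51% and 8.33%, 0.649 and 0.427, 3651 and 4628, 4718 and 4394, a neighbour r of 0.775, a standard deviation of array differences of 0.204 and 32.3%. Length centring gave 1303 lower regions, 15.9% below -1, 0.978 and 0.440, a neighbour r of 0.138, an array r of 0.939 and 4.69%, and turned chromosome 4 to 0.00444. The slide block gave 217 higher regions. Leaving out 1 array gave 189 to 544 higher regions and 19.4% to 22.6% of probes below -1. Region medians gave 1872 lower regions, eBayes against 0 gave 4558 and 7729, and treat at 1 gave 3 and 1144. At least 12 probes left 577 regions for the comparison of parts, with 199 and 252, and 233 and 202 called. Regions clear in Cy5 gave 99 lower. Of the values of single regions and chromosomes, 458 kept their call, 9 lost it, 6 gained it and 1 reversed. The gap between 45 and 60 nt probes moved to 0.944 with normexp, 0.965 with loess, 0.588 with both channels above background, 1.40 with no filter and 1.01 in the authors' values. In the order of those settings, the mean of outer minus middle parts moved to -0.0638, -0.0806, -0.0668, -0.0817 and -0.0471, and to -0.0486 with length centring and -0.141 with at least 12 probes. Signal over background limits the low end, where Cy5 was often unmeasured, and 3 arrays limit every test.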
